A study of Homo sapiens with 6 samples.

Results

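The genes described here are 43 genes of DNA replication and of the passage from G1 into S phase, chosen by name from their known roles and found by the Ensembl identifier that carries each symbol in GENCODE. All 43 were among the 58884 genes of the deposited table and all 43 had enough counts to be tested, of 16059 genes tested. RNA-seq compared the parental colorectal cancer line DLD1, which carries a helical domain mutation of PIK3CA, with p85β KR-AA cells, in which K477A and R478A were knocked into the endogenous PIK3R2 gene, with 3 libraries of each; the latter are called knock-in cells below. PIK3R2 encodes p85β, a regulatory subunit of PI3K, and both changes lie in a stretch that the study describes as a nuclear localization sequence. Both groups share the DLD1 background, and the labels name no treatment. The knock-in cells were screened as clones, and the labels do not say which clone or culture a library came from, so p-values measure the spread between these libraries, which may be technical. The title and genotype of all 3 knock-in libraries read K477A and R478A, whereas the source label of replicate 2 reads K477A and R479A and that of replicate 3 reads K477A and R480A.

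Replication origins are bound by the origin recognition complex (ORC), and CDC6 and CDT1 then load the ring-shaped MCM helicase onto DNA in G1, a step called licensing that geminin (GMNN) blocks after S phase begins. CDC45 and GINS join the ring to form the active helicase, polymerase α-primase lays down primers, RFC loads the PCNA clamp, and FEN1 and LIG1 finish the lagging strand. Many of these genes are targets of E2F transcription factors, which are released when the kinases CDK4 and CDK2 with their D- and E-type cyclins phosphorylate the RB protein.

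The promoters of 4 of the genes are shown because an E2F motif stands in genes that differed in opposite directions between the cells. CDT1 had the largest fall and POLA1 the largest rise among the 43 genes, and MCM2 and MCM6, chosen after their values were seen, are partners in the MCM ring that differed in opposite directions. Each line gives 250 bases before to 50 bases after the start of the RefSeq transcript, 5′ to 3′ on the gene's strand, on GRCh38.p14. Capitals mark matches to an E2F motif (TTTCCCGC, TTTGGCGC, TTTCGCGC or TTTGCCGC) or to the CCAAT box (CCAAT), on either strand.
CDT1, chr16:88803539-88803838, plus strand: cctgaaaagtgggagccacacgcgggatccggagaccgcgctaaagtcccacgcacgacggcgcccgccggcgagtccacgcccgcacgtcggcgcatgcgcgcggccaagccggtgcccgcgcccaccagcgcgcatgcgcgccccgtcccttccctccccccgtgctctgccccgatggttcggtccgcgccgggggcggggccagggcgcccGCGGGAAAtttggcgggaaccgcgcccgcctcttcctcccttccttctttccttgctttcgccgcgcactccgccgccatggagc
POLA1, chrX:24693668-24693967, plus strand: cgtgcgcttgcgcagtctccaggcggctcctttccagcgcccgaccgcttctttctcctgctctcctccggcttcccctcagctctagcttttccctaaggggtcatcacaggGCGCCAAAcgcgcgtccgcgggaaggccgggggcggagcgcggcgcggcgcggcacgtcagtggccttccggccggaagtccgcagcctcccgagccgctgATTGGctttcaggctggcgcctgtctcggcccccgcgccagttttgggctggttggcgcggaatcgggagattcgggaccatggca
MCM2, chr3:127598161-127598460, plus strand: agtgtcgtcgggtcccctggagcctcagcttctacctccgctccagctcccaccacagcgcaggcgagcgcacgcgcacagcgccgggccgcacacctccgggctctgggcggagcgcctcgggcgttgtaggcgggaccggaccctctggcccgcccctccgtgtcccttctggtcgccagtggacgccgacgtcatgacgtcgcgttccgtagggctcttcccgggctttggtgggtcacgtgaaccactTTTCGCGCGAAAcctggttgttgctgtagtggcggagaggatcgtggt
MCM6, chr2:135876394-135876693, minus strand: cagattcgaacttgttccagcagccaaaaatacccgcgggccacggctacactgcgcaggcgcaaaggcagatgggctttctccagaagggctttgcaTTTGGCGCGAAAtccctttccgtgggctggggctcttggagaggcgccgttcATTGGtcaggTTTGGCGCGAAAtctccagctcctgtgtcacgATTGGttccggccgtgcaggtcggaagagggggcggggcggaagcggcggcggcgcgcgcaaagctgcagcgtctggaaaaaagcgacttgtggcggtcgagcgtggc
In MCM2 and MCM6 matches on opposite strands overlap, so that the runs of 12 capitals each count as 2 matches. Promoters were matched for 35 of the 43 genes, and 18 of these, or 51.4%, held an E2F motif, beside 3.99% of 27305 genes of the RefSeq table. The motif stood in 11 of 17 matched genes that fell, in 4 of 8 that rose and in 3 of 10 that did not pass the test. The CCAAT box was in 22 of the 35 genes, or 62.9%, beside 39.7% of all genes in the table. The windows of the 35 genes had a median GC content of 65.7%, against 58.7% over all windows. A match describes the letters of the window and says nothing of binding in these cells.

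Each of the parental libraries held 20301932 to 20873475 counts and each knock-in library 20301396 to 26712816, and 3 counts were worth 0.0818 to 0.218 CPM, a limit that covers counting error only. CPM is the count scaled to a common library size after TMM normalization, which centers the libraries on the bulk of their genes. The edited gene PIK3R2 had 34.8, 12.3 and 19.3 CPM in parental and 13.7, 16.6 and 4.56 CPM in knock-in replicates 1, 2 and 3 (adjusted p = 0.0558), and gene counts cannot show the base changes themselves. The cells differed far beyond the genes of replication: of 13 colon epithelium markers tested (14 listed), 10 fell and 2 rose, and their summed level was 58686 to 80888 CPM in parental and 9152 to 10713 CPM in knock-in libraries. Most of that sum came from KRT8, KRT18 and KRT19, and the genes that rose were CDH1 and CEACAM5. All 8 mesenchymal markers tested (12 listed) rose, from a sum of 12.0 to 16.1 CPM in parental to 6328 to 7241 CPM in knock-in libraries, most of it from VIM and FN1, while COL3A1, DCN and LUM had 0 counts in all parental libraries. Of 5 neuron markers tested (10 listed) 3 rose and 1 fell, with sums of 522 to 610 and 342 to 365 CPM, and of 2 blood markers tested (8 listed) 1 fell, with sums of 54.7 to 66.5 and 36.8 to 45.5 CPM. Most of the neuron sums came from TUBB3, which fell. NEFL, NEFM and MAP2 rose, and NEFL went from 0 counts in all parental libraries to 131.5 ± 1.97 CPM in knock-in libraries. Marker calls are under TMM, and some depended on the scaling. With offsets for length and GC content, described below, TUBB3 (log2 fold change 0.20) and MAP2 (0.14) did not pass, and CD68 passed upward (0.51). EPCAM did not pass with library totals (0.07), nor COL1A1 (-0.24) and PDGFRB (-0.06) with length offsets alone. VIM, FN1 and NEFL rose, and KRT8, KRT18 and KRT19 fell, in all of these fits. The part of these differences in the results below was not tested.

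With edgeR's quasi-likelihood test, 20 of the 43 genes fell in p85β KR-AA cells, 8 rose and 15 did not pass the test (a gene is said to rise or fall where its Benjamini-Hochberg adjusted p over all tested genes is under 0.01). Of all tested genes 32.7% fell and 41.6% rose, so the share that fell was larger and the share that rose smaller among the 43 genes, and no test of the set as a whole was made. With libraries scaled by their totals 20 of the 43 genes rose and 15 fell, beside 57.9% and 17.9% of all tested genes. With offsets fitted on length and GC content 3 rose and 29 fell, beside 28.1% and 34.4%. The share that fell was thus above, and the share that rose below, that of all tested genes under each of these scalings. With DESeq2 8 rose and 22 fell, beside 38.9% and 34.4%. A fold change of at least 3 was passed downward by 12 genes and upward by 4, beside 17.6% and 28.6% of all tested genes. The 3 knock-in libraries were all below the 3 parental libraries in 23 genes and all above them in 10 genes, beside 36.5% and 47% of all tested genes, and the groups overlapped in the other 10. The median log2 fold change of the 43 genes was -0.38 against 0.32 for all tested genes, and 33 of the 43 genes lay below that median of all genes. These libraries come from mixed cells of each culture, so fewer cells in S phase and less RNA of a gene per cell cannot be told apart.

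**Figure D1:**
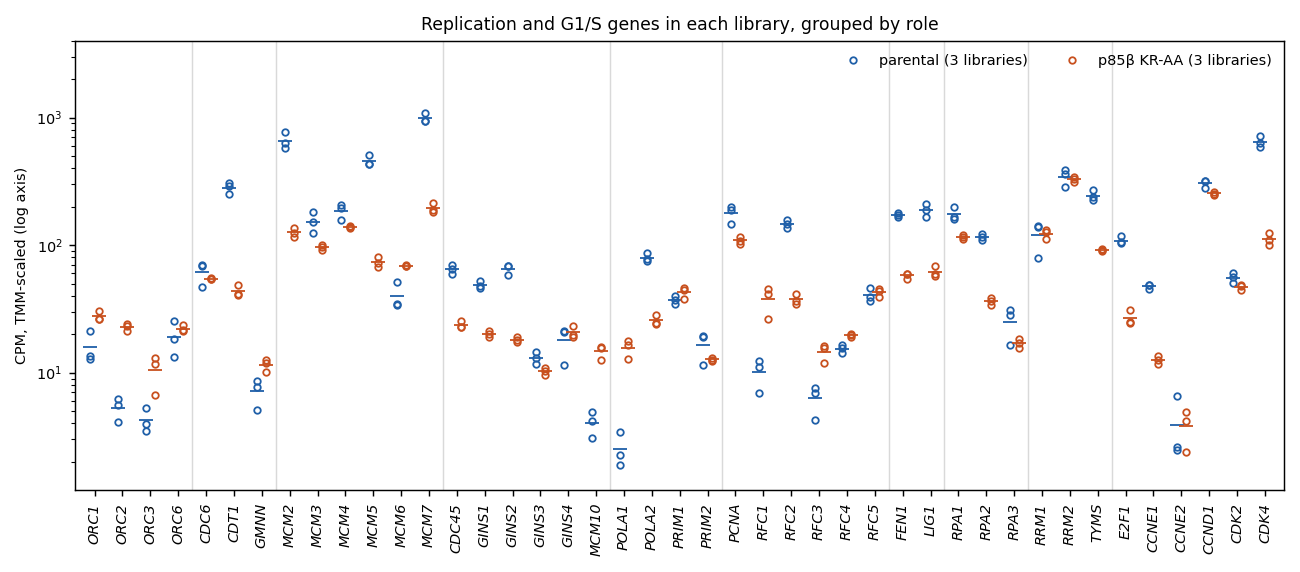
CPM (TMM-scaled, log axis) of the 43 genes in each library, in order of role, with blue circles for the 3 parental and orange circles for the 3 knock-in libraries and a bar at each mean. CDT1, MCM2, MCM5, MCM7 and CDK4 stand 5-fold or more lower in the knock-in libraries, while ORC2, MCM10, POLA1 and RFC1, all low in parental cells, stand more than 3-fold higher, although RFC1 is below 0 on the log2 fold scale with length and GC offsets.

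The subunits of ORC, which mark the origins, were higher or did not pass the test under TMM. ORC2 was at 4.12, 6.19 and 5.61 CPM in parental and at 23.3, 24.2 and 21.1 CPM in knock-in replicates 1, 2 and 3, a rise of 2.11 ± 0.19 on the log2 scale (± SE, as for all log2 fold changes, adjusted p = 4.96e-07). All 3 knock-in libraries were above all parental ones also for ORC1, the largest subunit and an E2F target, which rose by 0.80 ± 0.20 (adjusted p = 0.00271), and for ORC3, which rose by 1.3 ± 0.27 (adjusted p = 0.000713). ORC6 had overlapping groups, with 18.9 ± 5.98 CPM (± SD, n = 3, as for all levels) in parental and 22.2 ± 1.31 CPM in p85β KR-AA cells. The call of ORC1 was lost without parental replicate 1 (log2 fold change 0.69) or knock-in replicate 3 (0.73), and that of ORC3 without parental replicate 3 (1.14). With offsets that remove, per library, any trend of level with gene length and GC content (length and GC offsets), none of these subunits passed upward, and ORC3 stood at -0.18. ORC6 passed upward with library totals (1.17) and with offsets for length alone (0.82), but stood at -0.31 with length and GC offsets.

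Of the licensing factors, CDT1 passed the test and CDC6 and GMNN did not under TMM. CDT1, which brings the MCM ring to ORC, was at 291, 305 and 251 CPM in parental and at 41.7, 40.8 and 48.7 CPM in knock-in libraries, a fall by 2.69 ± 0.14 on the log2 scale (6.46-fold, adjusted p = 6.62e-09). Its inhibitor GMNN was at 5.11, 8.67 and 7.71 CPM in parental and 11.9, 12.7 and 10.1 CPM in knock-in libraries, with no overlap between the groups, and its adjusted p of 0.011 just missed the threshold. GMNN passed it upward without parental replicate 2 (log2 fold change 0.82) or knock-in replicate 3 (0.78), without a filter on low counts (0.75), with library totals (1.62) and with length offsets (1.62). GMNN did not pass with DESeq2 (0.58, adjusted p = 0.018) or with length and GC offsets, where it stood at 0.14. CDC6, the ATPase that works with CDT1, had overlapping groups at 61.7 ± 13.2 and 54.6 ± 0.41 CPM. Its direction depended on the scaling, as it passed upward with library totals (0.75) and downward with length offsets (-1.29) and with length and GC offsets (-1.96). Within each library the level of CDT1 over that of GMNN, both per length, was 13.8 to 24.2 in parental and 1.37 to 2.04 in p85β KR-AA cells. The 2 genes stood closer together with length and GC offsets, at log2 fold changes of -1.26 for CDT1 and 0.14 for GMNN.

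The 6 subunits of the MCM ring, which act as a complex with a copy of each, did not move together under TMM. With length and GC offsets all 6 passed downward, from -0.94 for MCM6 to -2.14 for MCM5. MCM2 fell from 766, 575 and 631 CPM to 125, 116 and 137 CPM, by 2.38 ± 0.15 on the log2 scale (adjusted p = 1.55e-08). MCM5 fell from 504, 431 and 430 CPM to 72.6, 67.9 and 80.5 CPM, by 2.63 ± 0.14 (adjusted p = 6.25e-09). MCM7, the most abundant of the 6, fell from 1078, 947 and 935 CPM to 190, 180 and 212 CPM, by 2.34 ± 0.13 (adjusted p = 9.23e-09). In each of these genes every knock-in library was far below the lowest parental library. MCM6 went the other way, from 34.0, 34.4 and 51.8 CPM in parental to 70.2, 68.3 and 69.0 CPM in knock-in libraries, a rise of 0.79 ± 0.17 (adjusted p = 0.000845) that became -0.01 with length offsets and -0.94 with length and GC offsets. MCM3 fell by 0.66 ± 0.15 (adjusted p = 0.00106) and MCM4 by 0.42 ± 0.13 (adjusted p = 0.00958) under TMM, with no overlap between the groups, but both differences were positive when libraries were scaled by their totals (0.25 and 0.50). With library totals MCM4 passed the edgeR test upward (adjusted p = 0.0057), and MCM3 did not pass (adjusted p = 0.196). MCM4 lost its call without parental replicate 3 (log2 fold change -0.39) and when knock-in replicate 1, 2 or 3 was left out (-0.41, -0.40 and -0.44). It also lost the call without a filter on low counts (-0.37) and among genes with at least 10 counts in every library (-0.23), where MCM3 (-0.46) and RPA1 (-0.40) lost theirs too.

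**Figure D2:**
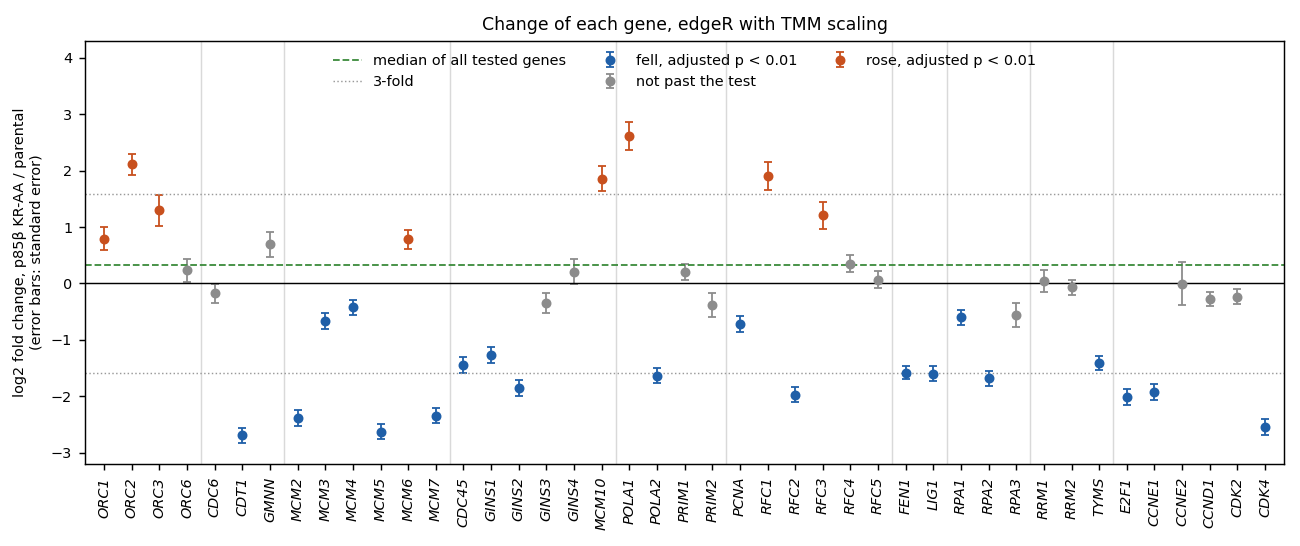
Log2 fold change of each gene, p85β KR-AA over parental, from edgeR with TMM scaling, with standard errors, in order of role. Blue points fell, orange points rose and grey points did not pass an adjusted p of 0.01. Subunits of the same complex lie on both sides of 0, as MCM2, MCM5 and MCM7 against MCM6, or POLA2 against POLA1, and MCM3, MCM4, PCNA and RPA1, which fell here, are above 0 with library totals, while MCM6 is below 0 with length offsets.

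Of the factors that turn the loaded ring into a helicase, CDC45 fell from 59.4, 69.3 and 65.4 CPM to 22.9, 23.0 and 25.3 CPM, by 1.45 ± 0.14 on the log2 scale (adjusted p = 6.75e-07). GINS2 fell by 1.85 ± 0.14 (adjusted p = 9.54e-08), from 58.3, 69.2 and 68.5 CPM to 17.9, 17.4 and 18.9 CPM. GINS1 fell by 1.27 ± 0.14 (adjusted p = 2.86e-06), and its difference was -0.34 and no longer past the test with library totals. These knock-in libraries were all below the parental ones. GINS3 and GINS4, the other subunits of the same complex of 4, did not pass the test under TMM, at 13.1 ± 1.35 and 10.3 ± 0.63 CPM for GINS3 and at 17.9 ± 5.53 and 20.7 ± 2.23 CPM for GINS4, whose difference turned to -0.06 without parental replicate 2. GINS4 passed upward, however, with library totals (1.11), with length offsets (1.09) and with length and GC offsets (0.92). MCM10, which is not a ring subunit but is needed to start unwinding, rose from 3.06, 4.15 and 4.94 CPM to 15.6, 15.8 and 12.6 CPM, by 1.86 ± 0.22 (adjusted p = 5.18e-06). Among the 8 genes that rose, MCM10 alone kept its call under every alternative tried.

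Polymerase α-primase, which starts each new strand, showed the widest split between partners. POLA1, its catalytic subunit, was at 2.26, 1.89 and 3.46 CPM in parental and at 16.5, 17.6 and 12.9 CPM in knock-in libraries, a rise of 2.61 ± 0.25 on the log2 scale (adjusted p = 7.17e-07). POLA2, its accessory subunit, went from 75.5, 77.3 and 86.1 CPM to 24.0, 24.7 and 28.5 CPM, a fall by 1.63 ± 0.14 (adjusted p = 2.34e-07). POLA1 lies at chrX:24711990-25015103 and POLA2 at chr11:65029384-65073430 on GRCh37, with deposited lengths of 5486 and 3544 bases and GC contents of 41.2% and 51.1%. The primase subunits PRIM1 and PRIM2 did not pass the test, at 37.2 ± 2.64 and 42.8 ± 4.31 CPM and at 16.6 ± 4.47 and 12.7 ± 0.33 CPM. Without parental replicate 1, PRIM2 passed it at a log2 fold change of -0.60, and with length and GC offsets at -1.71. The direction of PRIM1 depended on the scaling. PRIM1 passed upward with library totals (1.13) and length offsets (0.93), and downward with length and GC offsets (-0.58). With length and GC offsets POLA1 stood at 0.24 and did not pass, while POLA2 stood at -2.20 and did.

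RFC, the clamp loader, was split in the same manner between its subunits. RFC1, its large subunit, rose from 6.91, 12.3 and 11.0 CPM to 41.2, 45.5 and 26.4 CPM, by 1.90 ± 0.25 on the log2 scale (adjusted p = 1.25e-05), and RFC3 rose by 1.21 ± 0.24 (adjusted p = 0.000399), although with length and GC offsets they stood at -0.31 and -0.04. RFC2 fell from 137, 157 and 146 CPM to 34.6, 36.4 and 41.7 CPM, by 1.97 ± 0.13 (adjusted p = 3.36e-08). RFC4 and RFC5 did not pass the test, at 15.4 ± 1.04 and 19.7 ± 0.59 CPM and at 40.7 ± 4.79 and 42.8 ± 3.16 CPM, with no overlap for RFC4, which passed upward at 0.55 among genes with at least 10 counts in every library. RFC4 also passed upward with library totals (1.28) and length offsets (1.11), but stood at -0.24 and did not pass with length and GC offsets. RFC5 was at a log2 fold change of -0.012 without parental replicate 1. RFC5 passed upward with library totals (0.99) and downward with length and GC offsets (-0.34). PCNA, the clamp that RFC loads, fell from 200, 147 and 188 CPM to 116, 108 and 102 CPM, by 0.71 ± 0.14 (adjusted p = 0.000429) under TMM, and its difference was 0.21 with library totals and 0.05 with length offsets.

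The enzymes that join Okazaki fragments both fell. The flap endonuclease FEN1 went from 167, 173 and 178 CPM to 59.8, 54.3 and 59.4 CPM, by 1.58 ± 0.12 on the log2 scale (adjusted p = 9.7e-08). DNA ligase 1, LIG1, went from 208, 166 and 188 CPM to 57.7, 59.9 and 68.1 CPM, by 1.60 ± 0.14 (adjusted p = 2.45e-07). Neither gene had an overlap between the groups. With length and GC offsets the falls were smaller, at -0.92 for FEN1 and -0.89 for LIG1, and still passed. Of RPA, the trimer that coats single-stranded DNA, RPA2 fell by 1.68 ± 0.13 (adjusted p = 8.69e-08), from 109, 123 and 117 CPM to 36.5, 33.9 and 38.3 CPM. RPA1 fell by 0.60 ± 0.13 (adjusted p = 0.00083) under TMM and was at 0.32 with library totals. RPA3 did not pass under TMM, at 25.1 ± 7.68 and 17.0 ± 1.36 CPM, but it did downward without parental replicate 1, at a log2 fold change of -0.80, and with DESeq2, at -0.67 (adjusted p = 0.00338). RPA3 also passed downward with length and GC offsets, at -1.57.

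The subunits of ribonucleotide reductase, which makes deoxynucleotides, did not pass the test in either direction under TMM. RRM1 was at 79.5, 139 and 141 CPM in parental and 132, 126 and 111 CPM in knock-in libraries, and RRM2 at 360, 285 and 387 CPM and 313, 332 and 339 CPM. Both had overlapping groups, and RRM1 changed sign without parental replicate 1 (log2 fold change -0.197) or knock-in replicate 1 (-0.00321). RRM1 and RRM2 both passed upward with library totals (0.96 and 0.85) and downward with length and GC offsets (-1.35 and -0.99). TYMS, which makes thymidylate, fell from 225, 240 and 269 CPM to 92.1, 90.2 and 93.5 CPM, by 1.41 ± 0.12 (adjusted p = 3.18e-07).

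Among the G1/S regulators, CDK4 had the largest difference. CDK4, the partner of the D-type cyclins, fell from 631, 720 and 585 CPM to 109, 99.8 and 124 CPM, by 2.54 ± 0.14 on the log2 scale (adjusted p = 8.78e-09). E2F1, the transcription factor that drives many of the genes above, fell from 117, 105 and 103 CPM to 24.7, 25 and 31.1 CPM, by 2.01 ± 0.14 (adjusted p = 5.19e-08). CCNE1, a cyclin of CDK2, fell from 45.6, 48.8 and 49.1 CPM to 12.6, 11.6 and 13.6 CPM, by 1.92 ± 0.15 (adjusted p = 9.62e-08). The knock-in libraries were below the parental ones in all 3 genes, and none of the left-out libraries or other settings ended these calls. The falls were smaller with length and GC offsets, at -1.53 for CDK4, -0.84 for E2F1 and -1.80 for CCNE1. The other genes did not pass: CCND1, a D-type cyclin, was at 307 ± 22.2 and 254 ± 7.29 CPM, CDK2 at 55.7 ± 4.78 and 47.3 ± 2.18 CPM, and CCNE2 at 3.87 ± 2.33 and 3.81 ± 1.3 CPM. CCND1 and CDK2 had no overlap between the groups, and CCND1 passed downward without parental replicate 2 (log2 fold change -0.36), with DESeq2 (-0.39, adjusted p = 0.00571) and with length offsets (-1.3), but upward with library totals (0.65) and with length and GC offsets (0.34). CDK2 passed upward with library totals (0.69), and CCNE2 passed downward with length and GC offsets (-1.52). CCNE2 had the fewest counts of the 43 genes over all 6 libraries, and its sign changed without parental replicate 2 (0.57) or knock-in replicate 3 (0.25).

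Levels were compared between genes as TPM, computed from the counts and the deposited length so that each library has the same sum. The 43 genes together held 2418 ± 274 TPM in parental and 2606 ± 23.1 TPM in p85β KR-AA cells, with overlapping groups, whereas their summed CPM went from 6175 ± 148 to 2644 ± 58.7. On TPM the knock-in libraries were all above the parental ones in 27 genes and all below in 10, beside 72.4% and 15.5% of all tested genes. The 10 genes that were lower on TPM as well as on CPM were CDT1, MCM2, MCM5, MCM7, GINS2, RFC2, RPA2, E2F1, CCNE1 and CDK4. The direction of the summed level thus rested on the scale. A ratio of 2 genes within a library does not depend on how the library is scaled, but it does change with offsets for length or GC content.

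Subunits of the same complex lay closer to each other in p85β KR-AA cells. In the MCM ring the highest subunit was MCM7 and the lowest MCM6 in all 6 libraries, and the ratio of their TPM was 40.2, 35.0 and 22.9 in parental and 3.43, 3.35 and 3.90 in knock-in libraries. In parental cells the order by mean TPM was MCM7 (333 ± 44.9), MCM2 (192 ± 40.2), MCM5 (131 ± 19.4), MCM4 (58.9 ± 10.2), MCM3 (48.1 ± 13.5) and MCM6 (10.8 ± 3.68), where the libraries of MCM4 and MCM3 overlapped, as those of MCM2 and MCM5 did at their edges. In p85β KR-AA cells it was MCM7 (170 ± 9.86), MCM4 (114 ± 0.47), MCM2 (95.1 ± 5.02), MCM3 (78.1 ± 1.10), MCM5 (55.2 ± 3.29) and MCM6 (47.8 ± 1.16), with no overlap between neighbours. The change in MCM7 over MCM6 was -3.13 on the log2 scale under TMM and -1.07 with length and GC offsets, where both genes were below 0 (-2.01 and -0.94).

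The TPM of subunits also lay closer together in other complexes. The highest subunit of RFC exceeded the lowest 36.9- to 57.7-fold in parental and 2.97- to 4.83-fold in knock-in libraries, with RFC1 at 2.04 ± 0.53 and 20.1 ± 5.81 TPM. The change in RFC2 over RFC1 was -3.87 under TMM and -1.07 with length and GC offsets (RFC2 -1.37 and RFC1 -0.31). In polymerase α-primase this ratio was 44.2 to 76.3 and 10.1 to 11.4, with POLA1 the lowest subunit at 0.47 ± 0.19 and 7.42 ± 1.35 TPM. The change in POLA2 over POLA1 was -4.24 and -2.44 in the same fits. Among ORC1, ORC2, ORC3 and ORC6 it was 8.57 to 10.8 and 2.54 to 4.95, and in RPA 6.20 to 10.9 and 3.02 to 4.01. GINS was the exception among the 6 complexes, at 2.94 to 3.85 and 2.84 to 3.36 with overlapping groups. Levels also lay closer together in general: the interquartile range of log2 TPM was 4.83 ± 0.07 in parental and 3.50 ± 0.06 in knock-in cells over all tested genes, and 3.13 ± 0.14 and 2.08 ± 0.04 over the 43 genes. With 3 libraries against 3 an exact permutation test of any of these ratios cannot go below p = 0.10, so none is given.

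**Figure D3:**
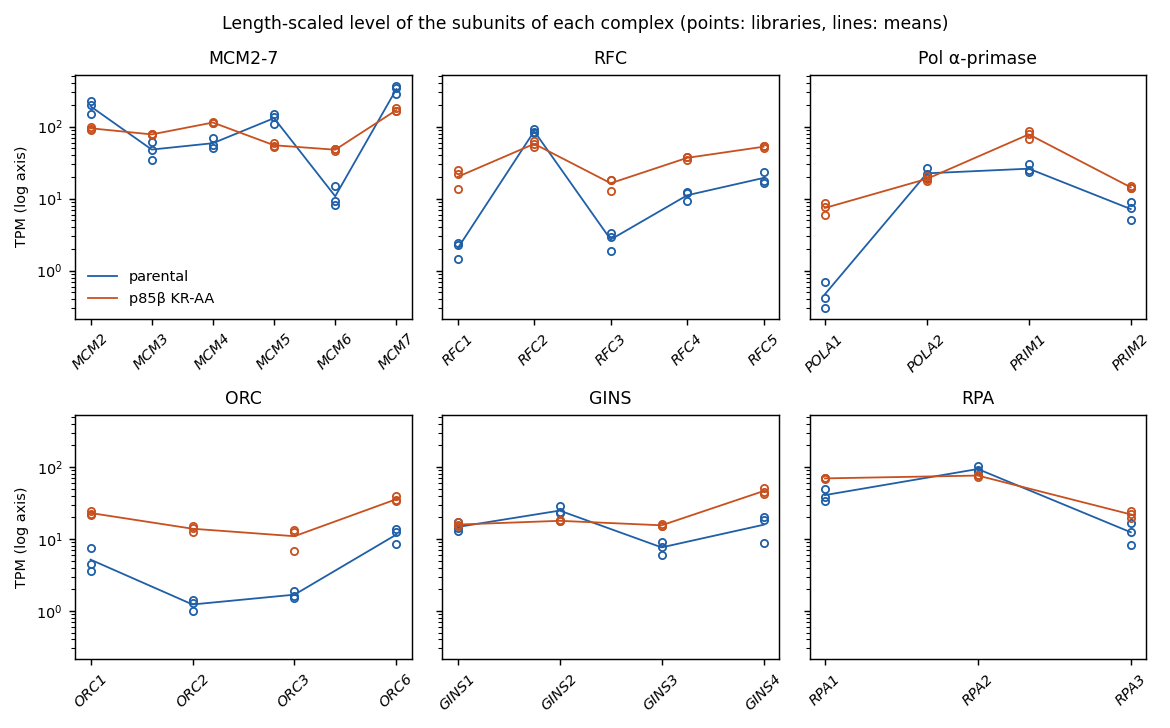
TPM (log axis) of the subunits of 6 replication complexes in each library (circles), with lines through the means of the parental (blue) and p85β KR-AA (orange) libraries. The orange lines are flatter in every panel but GINS, as for the MCM ring, where the highest subunit exceeds the lowest by a ratio of 32.7 ± 8.89 in parental and 3.56 ± 0.30 in knock-in libraries.

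Between partners with opposing or parallel roles the ratios differed in some pairs. CCNE1 over CCNE2 was 25.9, 10.4 and 26.5 in parental and 3.58, 3.92 and 8.05 in knock-in libraries, and CDK4 over CDK2 was 9.02 to 11.8 and 1.92 to 2.33, with no overlap in either pair. With length and GC offsets, however, CCNE1 and CCNE2 stood close together, at log2 fold changes of -1.80 and -1.52. CDK4 and CDK2 stood at -1.53 and 0.08 in that fit. CCNE2 had few counts, and its values are uncertain because of an overlapping gene, as described below. RRM2 over RRM1 was 1.87 to 4.14 and 2.17 to 2.79, and RPA1 over RPA3 2.74 to 4.6 and 2.85 to 3.57, so that these pairs overlapped.

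The change was then set against gene length and GC content, since the median change of all tested genes went up with length and down with GC content. Genes over 4000 bases held 11.2 ± 1.5% of the counts in parental and 28.3 ± 0.61% in knock-in libraries, while those of 1000 bases or fewer held 25.1 ± 2.21% and 13.2 ± 0.12%. In 10 bins of equal size, the median log2 fold change of all tested genes went from -1.12 in the shortest to 2.25 in the longest. Over the 43 genes log2 length and log2 fold change had a Pearson's r of 0.20 and a Spearman's rho of 0.12, against 0.38 and 0.45 over 15902 genes, a description across genes that share the same 6 libraries. The log2 fold change of MCM5, of 3458 bases, less the median of its length bin was -3.37, that of MCM2 was -3.12 and that of MCM7 was -2.75. Of the 43 genes 26 lay below the median of their length bin and 17 above, with a median difference of -0.78.

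GC content was set against the change after the values were seen, as a description. The r with log2 fold change was -0.72 and the rho -0.74, against -0.49 and -0.58 over the 15902 genes. Of 7 genes with a GC content of at least 55%, 6 fell and none rose, and CCND1, at 61.9%, did not pass. Of all tested genes at or above that limit 62.6% fell and 13.1% rose. Of 15 genes under 45%, 6 rose and 2 fell, the latter being PCNA and GINS1, beside 71.7% that rose and 6.62% that fell of all tested genes in that range. Set against all genes of like GC content, 36 of the 43 genes lay below the median of their bin and 7 above, with a median difference of -1.13. Those far below their bin included GINS1 (-2.78), RPA2 (-2.33), PRIM2 (-2.32) and PCNA (-2.23), all of moderate or low GC content, while CCND1 (0.92), POLA1 (0.88) and ORC1 (0.74) lay furthest above. The place of length and GC content in the difference between the cells was not tested.

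**Figure D4:**
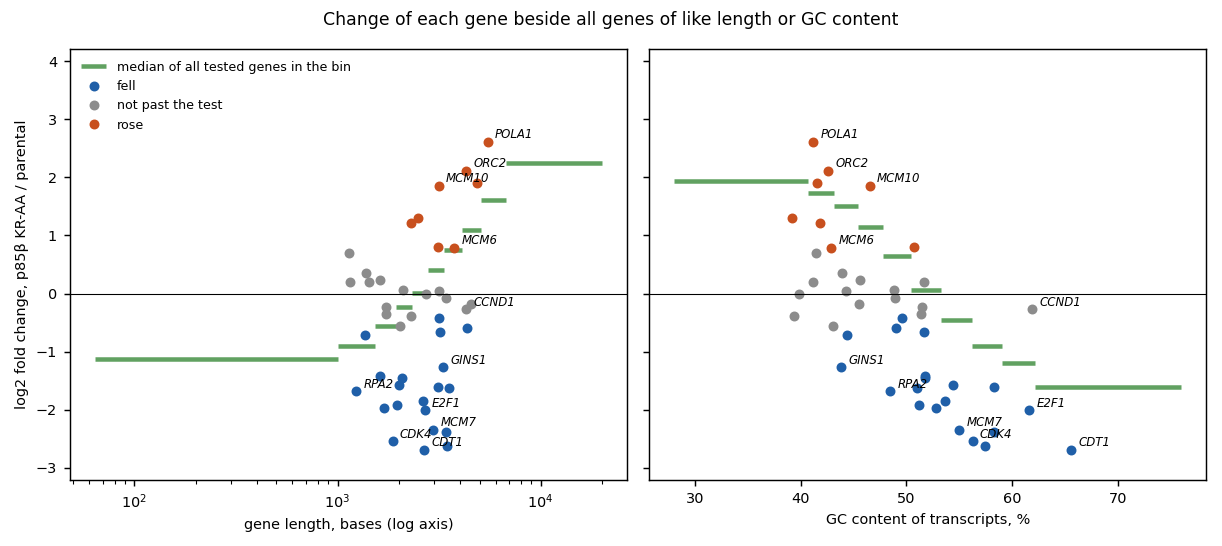
Log2 fold change (p85β KR-AA over parental) of the 43 genes against deposited gene length in bases (log axis, left) and GC content of the transcripts in percent (right), with points colored by call and green bars at the median of all tested genes in each of 10 bins. Most points lie below the green bars in the right panel (36 of 43), and CDT1, E2F1 and CDK4 lie at the GC-rich, lower end while POLA1 and ORC2 lie at the GC-poor, upper end.

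How far a gene's change depended on the scaling differed between the genes. Scaling by library totals in place of TMM shifted the median of all genes by 0.92 on the log2 scale. Of the 8 genes that rose under TMM all kept their call there, and of the 20 that fell 15 did. MCM4, which fell under TMM, passed upward with library totals (0.50). With length and GC offsets all 20 genes that fell kept their call, and of the 8 that rose only MCM10 did. A total of 15 genes fell under TMM and under every alternative, including each left-out library: CDT1, MCM2, MCM5, MCM7, CDC45, GINS2, POLA2, RFC2, FEN1, LIG1, RPA2, TYMS, E2F1, CCNE1 and CDK4. Their differences with library totals ranged from -0.49 for TYMS to -1.76 for CDT1.

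**Figure D5:**
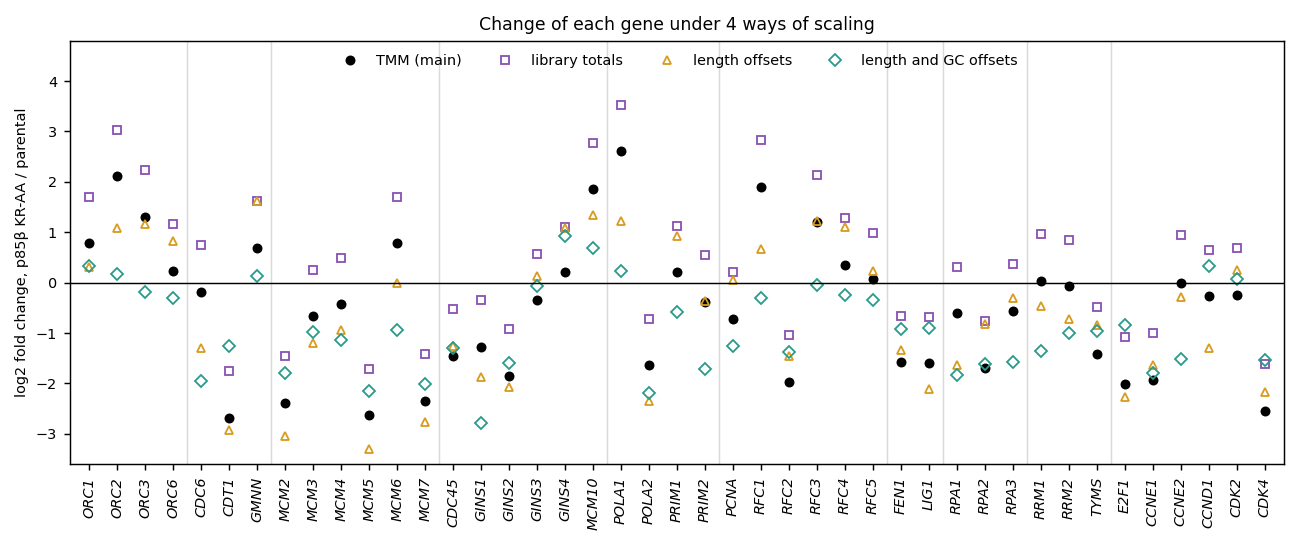
Log2 fold change of each gene (p85β KR-AA over parental) under TMM (black circles), library totals (purple squares), length offsets (yellow triangles) and length and GC offsets (green diamonds). CDT1, MCM2, MCM5, MCM7, E2F1 and CDK4 are below 0 under all 4, MCM10 is above 0 under all 4, and MCM3, MCM4, PCNA and RPA1 cross 0.

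Other genes of the same pathways, taken from lists of 51 genes of the fork and of nucleotide synthesis and 35 genes of G1/S control, were called in both directions. Of the 85 tested, 30 (35.3%) rose and 32 (37.6%) fell, not far from the 41.6% and 32.7% of all tested genes, with a median log2 fold change of 0.076, and CCND2 had too few counts to be tested. That likeness is under TMM. The split became 50 and 19 with library totals, where 57.9% and 17.9% of all tested genes rose and fell. With length and GC offsets it became 11 and 49, beside 28.1% and 34.4% of all tested genes. In that last fit the share of the 85 that rose was below, and the share that fell above, that of all tested genes. In the fork list 15 rose and 20 fell, and in the G1/S list 15 rose and 12 fell of 34 tested. The largest falls at sufficient abundance were those of TK1, the salvage thymidine kinase (1970 ± 220 to 173 ± 17.3 CPM, a log2 fold change of -3.51 ± 0.15), DTYMK, which makes thymidine diphosphate (449 ± 66.8 to 44.1 ± 3.77 CPM), RNASEH2A, a subunit of ribonuclease H2 (435 ± 73.9 to 47.8 ± 3.81 CPM), POLE4, a subunit of polymerase ε (161 ± 34.5 to 17.9 ± 1.2 CPM), and POLD2, a subunit of polymerase δ (1124 ± 156 to 145 ± 14.5 CPM). The adjusted p of these genes and of the next group ran from 2.13e-09 to 3e-06. The largest rises were those of TOPBP1, a checkpoint and origin firing scaffold (1.93 ± 0.48 to 21.3 ± 4.91 CPM, by 3.45 ± 0.26), RBL2, an RB family member (4.93 ± 0.59 to 37.5 ± 6.18 CPM), CDK6, the other partner of D-type cyclins (5.29 ± 0.45 to 38.3 ± 9.78 CPM), MCM8, a helicase of recombination (2.28 ± 1.02 to 15 ± 3.67 CPM), and E2F7, a repressor E2F (2.75 ± 1.28 to 16.3 ± 1.23 CPM). CDK4 thus fell while CDK6 rose, although with length and GC offsets CDK6 stood at 0.41 and E2F7 at 0.57 and neither passed the test.

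Some of these genes overlap others on the annotation, and the strand setting of the counting is not known, so that reads of overlapping partners may not be told apart. TSPAN31, on the opposite strand, shares 44.2% of the exon bases of CDK4, but had 156 and 571 counts on average beside 9621 and 3419 of CDK4 in parental and knock-in libraries. ENOSF1 shares 39.9% of TYMS with 107 and 611 counts beside 3681 and 2844. INTS8 shares 37% of CCNE2 with 114 and 642 counts, more than the 56.3 and 121 of CCNE2 itself, whose values are uncertain for this reason. Some partners with smaller shares also had more counts in both groups, namely NACA with PRIM1 (4.2%), EIF4A2 with RFC4 (0.6%) and WSB2 with RFC5 (5.7%). A gene on the same strand shares 16.8% of POLA2, with 155 and 168 counts beside 1197 and 790. A long noncoding RNA opposite MCM2 shares 23.6% of its exon bases and had 77 and 17.5 counts, against 9882 and 3892 of MCM2.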

How the data were processed

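RNA-seq of DLD1 parental and p85β KR-AA cells (3 libraries each) was analysed. According to the study's methods reads were trimmed with SeqPrep and Sickle; the submitters' processing notes name HISAT2 2.1.0, RSEM 1.3.1, DESeq2 1.24.0 and hg18 without a role, and the annotation and strand setting are not given in the sources used here. The authors deposited expected counts (estimated, not normalized, need not be whole) per Ensembl gene and a gene length. Counts were rounded and compared with edgeR 4.0.16 in R 4.3.3 (filterByExpr, minimum count 10, minimum total 15; TMM; quasi-likelihood F test, no covariate; Benjamini-Hochberg). Thresholds follow the study (adjusted p 0.01, fold change 3). Standard errors were derived from the F statistic. Symbols, positions and GC content came from GENCODE release 44 lifted to GRCh37, matched for 56745 of 58884 genes; the build behind the counts is not known. Promoters came from RefSeq.

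All 43 genes are named. From the other lists, the text names up to 5 genes in each direction that passed both thresholds, those with the largest absolute change once their log2 CPM averaged 3 or more. The genes, lists and tests were chosen with earlier results of these data known. Replicates differed by more than sampling noise. Alternatives were DESeq2 1.42.0, library totals, other filters and thresholds, the replicate number as a block, left-out libraries and spline offsets (5 degrees of freedom, MASS) for length and GC content. The code was tested on simulated data. Figures were drawn with matplotlib 3.10.9.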

Additional observations from a re-analysis of the deposited data

How the results depend on the processing

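For the 43 genes, leaving out each library in turn gave 7 to 9 genes that rose, 19 to 22 that fell, 4 up and 11 to 13 down at least 3-fold, and a median log2 fold change of -0.54 to -0.31. With library totals 20 rose, 9 were up and 3 down at least 3-fold, and the median was 0.54. With length offsets 1 gene was up at least 3-fold and the median was -0.73. With length and GC offsets 3 rose, 0 were up at least 3-fold (4 with TMM alone) and the median was -0.98. With at least 10 counts in every library the median was -0.18. For the other genes of the pathways, library totals gave 50 that rose, 19 that fell, 9 down at least 3-fold and a median of 1.00, length offsets 5 up at least 3-fold and a median of -0.38, and length and GC offsets 11 that rose, 49 that fell, 0 up at least 3-fold and a median of -0.72. Their median was -0.033 with DESeq2, 0.27 with at least 10 counts in every library and -0.00928 to 0.124 over the left-out libraries, the lowest without parental replicate 1. The cause of these shifts was not tested.

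The log2 fold change changed sign with library totals for CDC6 (0.75), MCM3 (0.25), MCM4 (0.50), GINS3 (0.57), PRIM2 (0.54), PCNA (0.21), RPA1 (0.32), RPA3 (0.36), RRM2 (0.85), CCNE2 (0.95), CCND1 (0.65) and CDK2 (0.69). With length offsets it did so for MCM6 (-0.00785), GINS3 (0.13), PCNA (0.0539), RRM1 (-0.47) and CDK2 (0.25), and with length and GC offsets for ORC3 (-0.18), ORC6 (-0.31), MCM6 (-0.94), PRIM1 (-0.58), RFC1 (-0.31), RFC3 (-0.0434), RFC4 (-0.24), RFC5 (-0.34), RRM1 (-1.35), CCND1 (0.34) and CDK2 (0.0799). Genes near 0 changed sign elsewhere: RFC5 (-0.0444) and RRM1 (-0.0732) with DESeq2, CDC6 (0.0199), RRM2 (0.13) and CCNE2 (0.20) with at least 10 counts in every library, CCNE2 (0.0600) without a filter, also with robust moderation, and, over left-out libraries, GINS4 (-0.0569 to 0.317), RFC5 (-0.012 to 0.137), RRM1 (-0.197 to 0.139) and CCNE2 (-0.26 to 0.573).

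With the replicate block CCNE2 stood at 0.0476, also with robust moderation, MCM4 lost its call, GMNN passed upward and no other call of the 43 genes changed. Outside them PIK3R2 (-1.01, adjusted p = 2.1e-05 with edgeR) and POLE2 (adjusted p = 0.00609) passed with the block. With the block, and without a filter on low counts, edgeR took each gene's spread from the common trend (infinite prior degrees of freedom). Calls in these 2 fits, GMNN among them, thus do not reflect the gene's own spread, and the groups of PIK3R2 overlapped. Libraries of the same number had deviations correlated at -0.10, 0.08 and -0.04, so the numbers do not pair them. Depth limits CCNE2 and the parental levels of POLA1 and MCM10.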
